A study of Homo sapiens with 12 samples.

Results

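The 52 genes described here each span a very long stretch of the human genome and were followed among the 35238 genes of one expression table. The rule names them for their genomic span, except TENM3 and ANK2, which were chosen from their expression with AAI in SCR cells. The RNA came from HK-2 cells, an established human proximal tubule line. Cells received a 10 nM siRNA duplex, either a scrambled control (SCR) or one against POLR2A (siB), and at the same time either DMSO or 25 µM aristolochic acid I (AAI) in DMSO for 24 hours. This gave 4 groups of 3 libraries, SCR DMSO, SCR AAI, siB DMSO and siB AAI, 12 in all. Every group thus carried a transfected duplex and the vehicle, and the knockdown was transient, made with a single duplex in a single cell line. The comparisons asked how far the RNA of these genes was lost with AAI, and whether POLR2A knockdown changed that loss.

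RNA polymerase II copies each protein-coding gene from its start to its end in one pass, introns included, so a gene of very long span keeps a polymerase engaged for hours although the spliced message is short. Aristolochic acid I is a plant toxin that is taken up by proximal tubule cells and reduced to a form that binds DNA bases, and bulky adducts on the template strand can stall the polymerase. POLR2A encodes RPB1, the catalytic subunit of RNA polymerase II. In the kidney, exposure to aristolochic acid injures the proximal tubule. These points are background and were not measured here.

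All 52 genes were longer than 400 kb in GENCODE 44 on hg38. Their span ran from 437 kb (PLCB4, chr20:9067825-9504593) to 2242 kb (DMD, chrX:31097677-33339609), with a median of 743 kb, and 13 of them exceeded 1000 kb. The exons of the reference transcript made up 0.842% of the span at the median, and the longest intron had a median length of 194 kb. Other annotated genes overlapped 50 of the 52, with a median of 6.5 per gene, and the sources used here do not state whether counting used strand, so reads of such neighbours may be included. In all, 505 genes of the table spanned more than 400 kb, of which 500 were protein coding.

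Promoter sequence upstream of the RefSeq start on GRCh38.p14 was found for 47 of the 52 genes. For 4 genes whose 250-base window ends at the annotated start of the gene, the sequence is printed 5′ to 3′ on the strand of the gene, because PARD3B and MAGI1 were lowered by AAI in both siRNA backgrounds whereas PRKCA and CAMTA1 were lowered in neither. Capitals mark GGGCGG or its reverse complement CCGCCC, the core of the GC box.
PARD3B, chr2:204545225-204545474 (+ strand): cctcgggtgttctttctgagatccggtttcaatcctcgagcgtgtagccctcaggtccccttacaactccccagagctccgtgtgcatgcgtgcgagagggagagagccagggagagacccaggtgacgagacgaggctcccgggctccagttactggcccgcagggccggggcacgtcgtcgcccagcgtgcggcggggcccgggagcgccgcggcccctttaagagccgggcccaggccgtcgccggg
MAGI1, chr3:66038919-66039168 (- strand): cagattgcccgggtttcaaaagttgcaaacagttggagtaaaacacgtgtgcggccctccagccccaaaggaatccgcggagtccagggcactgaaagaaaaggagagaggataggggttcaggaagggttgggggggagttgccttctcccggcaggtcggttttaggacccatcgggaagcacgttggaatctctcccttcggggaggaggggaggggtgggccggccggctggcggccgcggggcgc
PRKCA, chr17:66302363-66302612 (+ strand): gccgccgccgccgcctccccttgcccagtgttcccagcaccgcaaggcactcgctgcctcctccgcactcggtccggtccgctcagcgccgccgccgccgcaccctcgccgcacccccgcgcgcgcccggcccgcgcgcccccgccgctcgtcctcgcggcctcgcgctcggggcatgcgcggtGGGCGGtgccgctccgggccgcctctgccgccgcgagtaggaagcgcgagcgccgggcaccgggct
CAMTA1, chr1:6785204-6785453 (+ strand): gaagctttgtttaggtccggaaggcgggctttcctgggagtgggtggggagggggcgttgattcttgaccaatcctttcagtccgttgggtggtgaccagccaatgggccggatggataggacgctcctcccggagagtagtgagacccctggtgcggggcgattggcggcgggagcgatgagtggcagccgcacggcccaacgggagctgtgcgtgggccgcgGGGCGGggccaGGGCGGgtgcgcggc
These windows held 26, 16, 47 and 22 CpG dinucleotides, respectively. The GC box core, searched on both strands, stood in 25 of the 47 windows (53.2%) and in 42.6% of all 35116 promoter windows of the same length. The letters TATAAA stood in 5 of 47 (10.6%) against 10.7% of all windows. By outcome, the GC box core was present in 4 of 10 windows of genes called lowered in both backgrounds, in 8 of 11 called in 1 background and in 13 of 26 called in none. The last class includes TENM2, PRKG1, AUTS2, FHIT and NAALADL2, which were not tested with AAI. The class called in 1 background includes TENM3 and ANK2, which were not tested in SCR cells. The windows of TENM2, TENM3, CDK14, FRMD4A and RORA lie 94213 to 601772 bases from the start of the reference transcript.

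Expression is given as CPM, the reads of a gene scaled to a common library total. The shallowest library held 15844015 reads (replicate 1 of siB AAI) and the deepest 42805295 (replicate 2 of SCR DMSO), and 3 reads, the limit that a count of 0 allows, corresponded to 0.189 and 0.0701 CPM in those libraries. Intervals and floors of this kind cover counting error only. POLR2A measured 258, 288 and 306 CPM with SCR and DMSO, 673, 719 and 729 CPM with SCR and AAI, 138, 143 and 139 CPM with siB and DMSO, and 266, 220.4 and 210.3 CPM with siB and AAI. The siRNA target was therefore lower with siB than with SCR in every library of either treatment, without overlap, and higher with AAI than with DMSO under both siRNAs. Of 10 proximal tubule markers only 5 had a mean above 1 CPM, among them PAX8 and GGT1, while the organic anion transporter gene SLC22A6 was at or under the 3-read limit in all 12 libraries and the endocytic receptor gene LRP2 had a mean of 0.358 CPM. All 4 keratins, all 4 fibroblast markers and 2 of 4 endothelial or blood markers had a mean above 1 CPM, CDH5 being at or under the limit in 8 libraries. Summed fibroblast markers ran from 64.5 to 84.8 CPM in SCR DMSO, from 41.1 to 48.8 CPM in SCR AAI, from 63.5 to 67.8 CPM in siB DMSO and from 45.6 to 54.1 CPM in siB AAI. Summed endothelial or blood markers ran from 1.40 to 3.84, 2.49 to 2.87, 1.62 to 2.62 and 6.43 to 8.31 CPM in the same order. Summed proximal tubule markers ran from 610.4 to 724 CPM in SCR DMSO, from 389 to 648 CPM in SCR AAI, from 720.3 to 742 CPM in siB DMSO and from 395 to 542 CPM in siB AAI, and summed keratins from 1224 to 2003, 1082 to 1452, 1320 to 1524 and 976 to 1003 CPM. Their part in the results below was not tested. In bulk RNA, fewer cells of a type and less RNA per cell cannot be told apart.

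SCR DMSO replicate 2, the deepest library, stood apart. Of the 48 very long genes that passed the filter over all groups, it held the lowest value of its group in 42, and SCR DMSO replicate 1 the highest in 42. This count was not made over all genes. Genes with reads in all libraries had a median ratio, relative to CPM, of 0.768 in SCR DMSO replicate 2 and 0.946 to 1.108 elsewhere. Low CPM values in that library were thus not limited to very long genes. The median level of these 48 genes on the log2(CPM + 1) scale was 5.005, 3.83 and 4.51 in SCR DMSO replicates 1, 2 and 3, 2.68, 2.85 and 3.25 in SCR AAI, 4.64, 4.42 and 4.28 in siB DMSO, and 3.07, 3.20 and 3.30 in siB AAI. No AAI library reached the level of any DMSO library. Values without SCR DMSO replicate 2 are therefore given beside the counts that rest on the SCR DMSO libraries.

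**Figure D1:**
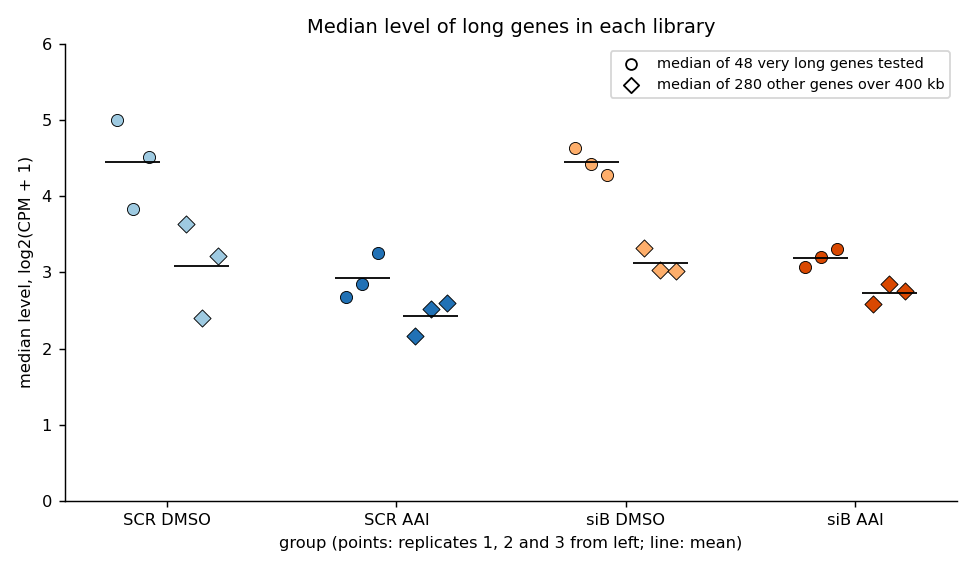
Each point is 1 library; the y axis is the median level on the log2(CPM + 1) scale of the 48 very long genes tested (circles) or of 280 other genes over 400 kb (diamonds), the x axis is the group, and lines are group means of 3 libraries. SCR DMSO replicate 2, the lowest point of its group at 3.83 for the very long genes, lies between the other DMSO libraries and the AAI libraries.

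In SCR cells, AAI lowered 14 very long genes and raised none. EXOC4, an exocyst subunit that tethers secretory vesicles, fell from 67.1 ± 20.3 to 13.2 ± 5.49 CPM (SD, n = 3), and SMYD3, a lysine methyltransferase, fell from 23.1 ± 2.46 to 5.56 ± 1.83 CPM. The median change over the 50 genes other than TENM3 and ANK2 was -1.04 on the log2 scale, beside 0.18 over the 14228 genes tested, and it was -1.08 with these 2 genes, which were chosen from this contrast. In limma's test at 2-fold and an adjusted p under 0.05, 45 of the 50 genes other than TENM3 and ANK2 passed the filter on low values, and 14 of them (31.1%) were called lowered, beside 2.73% of all genes tested. None was called raised, beside 7.73%. All 3 AAI libraries were below all 3 DMSO libraries in 23 of the 45 (51.1%), beside 11.5%, and without SCR DMSO replicate 2 they were below both other DMSO libraries in 43, beside 20.6%. The difference was negative in 44 of 45, MACROD2 being the exception, and in 38.2% of all genes tested, and without that library again in 44, beside 45.2%. PARD3B and DPYD passed the filter through their DMSO libraries alone, which favours a lowered call. Of the 43 genes left without them 12 (27.9%) were called, beside 2.61% of all genes with an AAI library at 1 CPM or more. These counts describe the genes tested and not all 52.

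The count in SCR cells depended on single libraries. It was 30 without SCR DMSO replicate 2, 6 without SCR DMSO replicate 3, 5 without SCR AAI replicate 1, 5 without SCR AAI replicate 2, 8 without SCR AAI replicate 3 and 11 without SCR DMSO replicate 1. The share of all genes called lowered moved as well, to 5.26%, 1.36%, 1.15%, 0.857%, 0.829% and 2.33% in the same order. BCAS3, EXOC4, SMYD3, SUPT3H and TRAPPC9 were called in each of these fits. PTPRG and MAGI1 lost their call without SCR DMSO replicate 3, SCR AAI replicate 1 or SCR AAI replicate 2, and CDK14 and PARD3B also without SCR AAI replicate 3. IMMP2L lost it without SCR AAI replicate 1 or 2, and CDKAL1, DPYD and RAD51B without any library other than SCR DMSO replicate 2. SND1 lost it without any library other than SCR DMSO replicate 1. With the replicate number as a block, 22 genes were called, including all 14, beside 3.79% of all genes. Replicate numbers paired the libraries in this comparison.

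In siB cells, AAI lowered 19 very long genes and again raised none. TRAPPC9, a subunit of a tethering complex of the secretory pathway, fell from 18.2 ± 1.11 to 3.15 ± 0.983 CPM, and PRKCE, a protein kinase C, from 32.02 ± 3.34 to 9.05 ± 1.84 CPM. The median over all 52 was -0.66, beside 0.10 over 14928 genes tested. Here TENM3 and ANK2 are counted, since other libraries chose them. Of 47 genes tested, 19 (40.4%) were called lowered, beside 5.79% of all genes, and none raised, beside 13.9%. PARD3B and DPYD again passed the filter through DMSO alone, and without them 17 of 45 (37.8%) were called lowered, beside 5.54%. The AAI libraries lay below the DMSO libraries in 32 of 47 (68.1%), beside 26.6%. With no fold limit 31 were lowered (66.0%), beside 21.8% of all genes, and PRKCA alone was raised (2.13%), beside 30.4%. The per-library median described above had an SD of 0.59 between the SCR DMSO libraries and of 0.18 between the siB DMSO libraries, whose part in the 2 counts was not tested. Leaving out 1 library gave 14 to 21 genes, beside 5.57% to 5.995% of all genes. CDK14, DIAPH2, LRBA, PTPRG and RBMS3 lost their call without siB DMSO replicate 1, IMMP2L, LRBA, PTPRG and RBMS3 without siB AAI replicate 1, and CDK14 without siB AAI replicate 2.

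**Figure D2:**
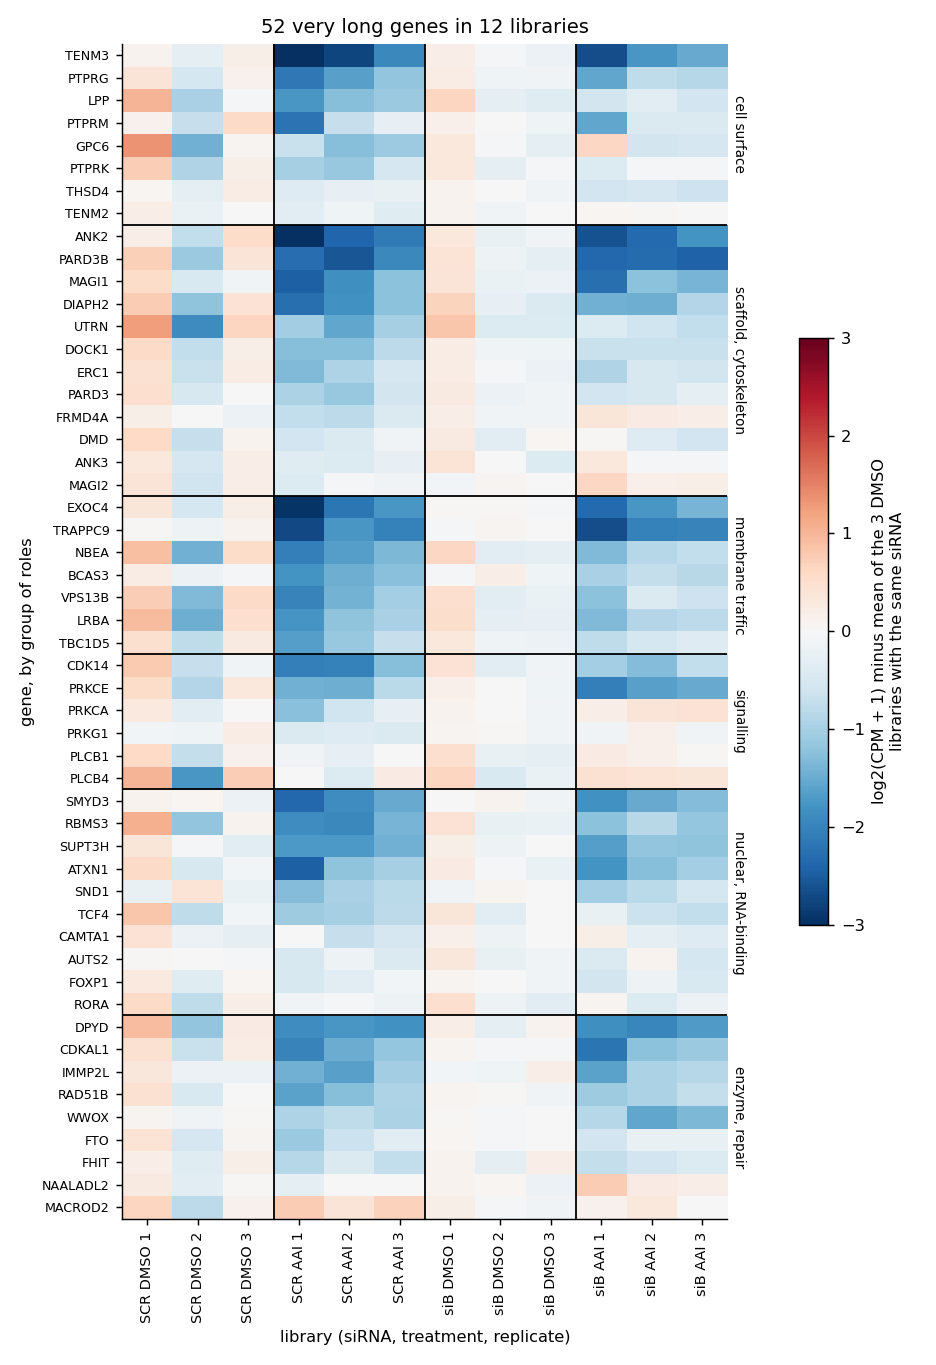
Rows are the 52 very long genes by group of roles, columns the 12 libraries, and colour the log2(CPM + 1) value minus the mean of the 3 DMSO libraries with the same siRNA, from -3 (blue) to 3 (red). Both AAI blocks are mostly blue, whereas MACROD2, MAGI2, FRMD4A, PLCB1 and PLCB4 show little or no loss in siB cells.

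Of the 14 genes lowered in SCR cells and the 19 in siB cells, 11 were the same, which is 78.6% of the first list and 57.9% of the second. They were CDK14, CDKAL1, DPYD, EXOC4, IMMP2L, MAGI1, PARD3B, PTPRG, SMYD3, SUPT3H and TRAPPC9. BCAS3, RAD51B and SND1 were called in SCR cells alone, at log2 changes of -0.84, -0.91 and -0.79 in siB cells, under the fold limit but with adjusted p of 0.00204, 0.00172 and 0.000948 (limma). The 8 called in siB cells alone were TENM3 and ANK2, which were not tested in SCR cells, and ATXN1, DIAPH2, LRBA, PRKCE, RBMS3 and WWOX. Across the 45 genes tested in both, TENM3 and ANK2 left out, the changes in SCR and in siB cells had a Pearson correlation of 0.85 and a Spearman correlation of 0.88. Over all 14104 genes tested in both, the corresponding values were 0.85 and 0.80. These are correlations across genes, which are not independent replicates.

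The cell surface, matrix and adhesion genes were TENM2, TENM3, PTPRG, PTPRK, PTPRM, LPP, GPC6 and THSD4. TENM3, a teneurin that mediates adhesion between neurons, measured 28.6, 21.5 and 29.7 CPM with SCR and DMSO, 1.99, 3.04 and 6.15 CPM with SCR and AAI, 31.5, 26.7 and 24.03 CPM with siB and DMSO, and 3.47, 7.48 and 8.84 CPM with siB and AAI. With AAI, TENM3 was at 13.996% of its DMSO mean in SCR cells, the contrast it was chosen from, and at 24.1% in siB cells, a log2 change of -1.97 ± 0.27 (SE; adjusted p = 0.000328) in limma's test. Every AAI library was far below every DMSO library. PTPRG, a receptor tyrosine phosphatase, measured 80.96, 42.5 and 67.95 CPM with SCR and DMSO, 13.1, 19.2 and 26.6 CPM with SCR and AAI, 59.6, 46.4 and 46.8 CPM with siB and DMSO, and 16.6, 29.3 and 27.5 CPM with siB and AAI. PTPRG fell in both backgrounds, with log2 changes of -1.65 ± 0.34 (SE; adjusted p = 0.0184) in SCR and -1.06 ± 0.21 (SE; adjusted p = 0.00244) in siB cells, and the groups did not overlap.

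THSD4, a secreted matrix protein, had the smallest change of this group in SCR cells among genes with a mean of at least 5 CPM. It measured 28.4, 22.1 and 31.8 CPM with SCR and DMSO, 20.5, 22.7 and 23.1 CPM with SCR and AAI, 29.8, 27.1 and 25.5 CPM with siB and DMSO, and 18.1, 18.9 and 17.5 CPM with siB and AAI. Its difference was -0.29 ± 0.24 (SE; adjusted p = 0.49) in SCR cells, where the groups overlapped, and -0.57 ± 0.13 (SE; adjusted p = 0.00527) in siB cells, where they did not but the change was under 2-fold. The related phosphatase genes PTPRK and PTPRM were at -0.88 and -1.05 in SCR cells with overlapping groups, and LPP, a focal adhesion protein, was at -1.38 with 292, 72.3 and 138 against 41.9, 58.4 and 65.3 CPM. GPC6, a glypican on the cell surface, spread from 8.81 to 66.6 CPM within SCR DMSO alone, so that its difference of -1.01 was within the spread. TENM2 was not above 1 CPM in any library and was not tested.

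The 12 scaffold genes of the membrane skeleton, cell polarity and actin included ANK2, an ankyrin that ties membrane proteins to spectrin. It measured 16.96, 8.34 and 21.99 CPM with SCR and DMSO, 0.386, 1.99 and 2.62 CPM with SCR and AAI, 22.1, 14.8 and 16.1 CPM with siB and DMSO, and 2.02, 2.68 and 4.29 CPM with siB and AAI. ANK2 was at 10.6% of its DMSO mean in SCR cells, the contrast it was chosen from, and in siB cells it fell, with a log2 change of -2.24 ± 0.24 (SE; adjusted p = 7.05e-05). PARD3B, a polarity protein related to PARD3, measured 10.1, 2.10 and 7.80 CPM with SCR and DMSO, 0.386, 0.136 and 0.744 CPM with SCR and AAI, 8.93, 5.64 and 5.19 CPM with siB and DMSO, and 0.442, 0.508 and 0.375 CPM with siB and AAI. Its log2 change was -2.26 ± 0.46 (SE; adjusted p = 0.0165) in SCR and -2.36 ± 0.21 (SE; adjusted p = 2.53e-05) in siB cells, and all 6 AAI libraries were under 1 CPM.

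MAGI1, a scaffold of epithelial tight junctions, measured 33.9, 16.3 and 20.996 CPM with SCR and DMSO, 3.37, 5.66 and 9.04 CPM with SCR and AAI, 24.5, 16.01 and 16.4 CPM with siB and DMSO, and 3.09, 7.38 and 6.43 CPM with siB and AAI. MAGI1 fell, with log2 changes of -1.83 ± 0.40 (SE; adjusted p = 0.0214) in SCR and -1.63 ± 0.28 (SE; adjusted p = 0.00111) in siB cells, with no overlap in either background. DMD, the gene of dystrophin and the longest of all 52, measured 13.6, 4.93 and 9.34 CPM with SCR and DMSO, 5.52, 6.16 and 8.03 CPM with SCR and AAI, 9.06, 5.68 and 7.75 CPM with siB and DMSO, and 7.57, 5.45 and 4.66 CPM with siB and AAI. Its difference was -0.36 ± 0.36 (SE; adjusted p = 0.562) and -0.30 ± 0.22 (SE; adjusted p = 0.269), and its groups overlapped in both backgrounds. DIAPH2, a formin that nucleates actin filaments, was called in siB cells only (-1.26, adjusted p = 0.0053, limma), with -1.77 and an adjusted p of 0.0684 in SCR cells.

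Several scaffold genes have a close relative in the list, and the relatives differed in size of change. In SCR cells, ANK2 stood at -2.67 and ANK3 at -0.34, PARD3B at -2.26 and PARD3 at -0.87, MAGI1 at -1.83 and MAGI2 at -0.18, and UTRN, encoding utrophin, at -1.20 beside DMD at -0.36. In siB cells the same pairs stood at -2.24 and 0.08, -2.36 and -0.45, -1.63 and 0.32, and -0.59 and -0.30. The order within each pair was the same in both backgrounds, although that of ANK2 and ANK3 in SCR cells was favoured by the choice of ANK2 on this contrast, and the difference within a pair was not tested. UTRN illustrates the spread of the SCR controls, with 218, 23.9 and 142 CPM in SCR DMSO against 43.4, 30.1 and 45.4 CPM in SCR AAI, and passed no test.

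All 7 genes grouped under membrane traffic, BCAS3 included, had a lower mean with AAI. Differences ran from -2.30 to -1.16 in SCR cells and from -2.24 to -0.56 in siB cells. EXOC4 (chr7:133253073-134066589) measured 83.6, 44.5 and 73.2 CPM with SCR and DMSO, 7.51, 13.5 and 18.5 CPM with SCR and AAI, 71.2, 70.5 and 65.96 CPM with siB and DMSO, and 12.9, 20.03 and 25.8 CPM with siB and AAI. It fell 5.09-fold in SCR and 3.54-fold in siB cells, with log2 changes of -2.30 ± 0.38 (SE; adjusted p = 0.00644) and -1.82 ± 0.21 (SE; adjusted p = 0.000119). TRAPPC9 measured 14.6, 12.7 and 15.3 CPM with SCR and DMSO, 1.33, 3.53 and 2.70 CPM with SCR and AAI, 17.3, 19.4 and 17.9 CPM with siB and DMSO, and 2.02, 3.69 and 3.75 CPM with siB and AAI. It fell, with log2 changes of -2.16 ± 0.30 (SE; adjusted p = 0.00306) and -2.24 ± 0.21 (SE; adjusted p = 2.98e-05), and its 3 SCR DMSO libraries agreed within 1.35 CPM (SD).

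BCAS3, a protein of the cytoskeleton and of cell migration, measured 15.6, 11.6 and 12.5 CPM with SCR and DMSO, 3.09, 4.08 and 4.89 CPM with SCR and AAI, 14.4, 17.4 and 13.8 CPM with siB and DMSO, and 7.26, 8.81 and 8.09 CPM with siB and AAI. BCAS3 fell in SCR cells, with a log2 change of -1.51 ± 0.26 (SE; adjusted p = 0.0083), and in siB cells the difference of -0.84 passed the adjusted p (0.00204, limma) but not the fold limit. The siB AAI libraries were all above the SCR AAI libraries. TBC1D5, a regulator of Rab GTPases in retromer traffic, had the smallest change of the group and measured 81.1, 33.5 and 69.7 CPM with SCR and DMSO, 17.6, 25.6 and 35.1 CPM with SCR and AAI, 74.3, 54.4 and 53.02 CPM with siB and DMSO, and 34.8, 41.1 and 45.7 CPM with siB and AAI. Its values of -1.16 ± 0.39 (SE; adjusted p = 0.0994) and -0.56 ± 0.16 (SE; adjusted p = 0.0161) passed no call. LRBA, a BEACH-domain protein of vesicle traffic, was called in siB cells at -1.001 (adjusted p = 0.00485, limma), at the limit of the fold, whereas its relative NBEA was just short of it at -0.97 and VPS13B, a lipid transfer protein of the Golgi, was under it at -0.76.

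The differences of the 5 signalling genes tested ran from -1.79 to -0.06 in SCR cells and from -1.73 to 0.41 in siB cells. CDK14, a cyclin-dependent kinase acting at the membrane in Wnt signalling, measured 40.2, 13.9 and 21.3 CPM with SCR and DMSO, 4.80, 4.85 and 8.81 CPM with SCR and AAI, 22.7, 13.1 and 15.4 CPM with siB and DMSO, and 7.70, 6.14 and 9.48 CPM with siB and AAI. CDK14 fell, with log2 changes of -1.79 ± 0.42 (SE; adjusted p = 0.0296) in SCR and -1.02 ± 0.23 (SE; adjusted p = 0.0043) in siB cells, without overlap. PRKCE, protein kinase C epsilon, measured 88.5, 32.3 and 74.6 CPM with SCR and DMSO, 21.3, 20.9 and 33.8 CPM with SCR and AAI, 35.5, 31.7 and 28.9 CPM with siB and DMSO, and 7.01, 9.60 and 10.6 CPM with siB and AAI. Its difference in SCR cells was -1.24 ± 0.40 (SE; adjusted p = 0.0889), with 1 DMSO library within the AAI range, and in siB cells it fell, with a log2 change of -1.73 ± 0.17 (SE; adjusted p = 5.26e-05).

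PRKCA, protein kinase C alpha (chr17:66302613-66810743), went the other way in siB cells. It measured 135, 88.4 and 112 CPM with SCR and DMSO, 45.6, 72.01 and 91.8 CPM with SCR and AAI, 117, 109 and 100.1 CPM with siB and DMSO, and 125, 142 and 148 CPM with siB and AAI. With AAI the SCR libraries were lower on average, -0.70 ± 0.30 (SE; adjusted p = 0.181), with overlap, whereas all siB AAI libraries exceeded all siB DMSO libraries, 0.34 ± 0.11 (SE; adjusted p = 0.0267), under the fold limit. PLCB4, a phospholipase C, measured 515, 74.5 and 419 CPM with SCR and DMSO, 249, 189 and 301 CPM with SCR and AAI, 279.5, 129 and 153 CPM with siB and DMSO, and 242, 237 and 229.9 CPM with siB and AAI, and its differences of -0.06 ± 0.66 (SE; adjusted p = 0.964) and 0.41 ± 0.24 (SE; adjusted p = 0.166) were within the spread of its DMSO libraries. The related PLCB1 was at -0.11 and 0.15. PRKG1, a cyclic GMP-dependent kinase, stayed under 1 CPM in all libraries and was not tested.

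Among the 10 nuclear and RNA-binding genes, SMYD3 measured 24.9, 23.99 and 20.3 CPM with SCR and DMSO, 3.70, 5.62 and 7.36 CPM with SCR and AAI, 23.4, 25.5 and 21.7 CPM with siB and DMSO, and 5.93, 7.57 and 8.90 CPM with siB and AAI. SMYD3 fell, with log2 changes of -1.91 ± 0.29 (SE; adjusted p = 0.00455) in SCR and -1.55 ± 0.17 (SE; adjusted p = 8.88e-05) in siB cells, and its DMSO libraries were tight, replicate 2 included. SUPT3H, a subunit of the SAGA coactivator complex, measured 6.47, 4.65 and 3.68 CPM with SCR and DMSO, 0.773, 0.770 and 1.14 CPM with SCR and AAI, 6.16, 4.69 and 5.30 CPM with siB and DMSO, and 1.01, 1.80 and 1.77 CPM with siB and AAI. It fell, with log2 changes of -1.63 ± 0.24 (SE; adjusted p = 0.00392) and -1.35 ± 0.20 (SE; adjusted p = 0.000426), from low levels. ATXN1, the gene of ataxin-1, a transcriptional repressor partner, measured 50.7, 23.5 and 31.4 CPM with SCR and DMSO, 5.30, 14.003 and 16.4 CPM with SCR and AAI, 35.5, 28.3 and 25.6 CPM with siB and DMSO, and 7.76, 11.5 and 14.1 CPM with siB and AAI. ATXN1 was called in siB cells, -1.37 ± 0.22 (SE; adjusted p = 0.00067), and missed the adjusted p in SCR cells, -1.55 ± 0.45 (SE; adjusted p = 0.0641), although neither pair of groups overlapped.

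SND1, a staphylococcal nuclease-domain RNA-binding protein, differed from the rest in that SCR DMSO replicate 2 held its highest control value, with 269, 418 and 274 CPM against 126, 161 and 179 CPM in SCR AAI. Its log2 change of -1.02 ± 0.25 (SE; adjusted p = 0.0356) lay at the fold limit. FOXP1, a forkhead transcription factor, had the smallest change of the group in SCR cells among genes with a mean of at least 5 CPM. It measured 41.4, 26.3 and 35.6 CPM with SCR and DMSO, 23.96, 26.96 and 31.8 CPM with SCR and AAI, 30.6, 28.9 and 26.7 CPM with siB and DMSO, and 19.3, 25.5 and 20.7 CPM with siB and AAI. Its differences were -0.30 ± 0.26 (SE; adjusted p = 0.506) and -0.39 ± 0.15 (SE; adjusted p = 0.0482). The transcription factor genes RORA and CAMTA1 were at -0.11 and -0.39 in SCR cells and -0.17 and -0.15 in siB cells, with overlapping groups, TCF4 was at -0.94 and -0.54, and RBMS3, an RNA-binding protein gene, fell in siB cells (-1.07, adjusted p = 0.00283, limma). AUTS2 was under 1 CPM throughout and was not tested.

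Of the 9 genes for enzymes and repair proteins, DPYD, the first enzyme of pyrimidine breakdown, measured 9.38, 1.43 and 5.52 CPM with SCR and DMSO, 0.497, 0.634 and 0.548 CPM with SCR and AAI, 4.70, 3.02 and 4.29 CPM with siB and DMSO, and 0.379, 0.277 and 0.536 CPM with siB and AAI. DPYD fell, with log2 changes of -1.81 ± 0.47 (SE; adjusted p = 0.0448) in SCR and -1.83 ± 0.19 (SE; adjusted p = 6.54e-05) in siB cells, and all 6 AAI libraries were under 1 CPM. CDKAL1, a tRNA-modifying enzyme, measured 25.97, 11.3 and 21.7 CPM with SCR and DMSO, 3.92, 6.03 and 7.83 CPM with SCR and AAI, 20.05, 17.99 and 18.3 CPM with siB and DMSO, and 3.35, 7.38 and 8.09 CPM with siB and AAI. CDKAL1 fell, with log2 changes of -1.54 ± 0.38 (SE; adjusted p = 0.0345) in SCR and -1.52 ± 0.26 (SE; adjusted p = 0.00115) in siB cells, in a similar size in both backgrounds. IMMP2L, a peptidase of the inner mitochondrial membrane, measured 6.15, 3.99 and 3.93 CPM with SCR and DMSO, 1.05, 0.816 and 1.72 CPM with SCR and AAI, 5.13, 4.96 and 6.41 CPM with siB and DMSO, and 1.14, 2.35 and 2.57 CPM with siB and AAI, and fell, with log2 changes of -1.37 ± 0.26 (SE; adjusted p = 0.0113) in SCR and -1.13 ± 0.23 (SE; adjusted p = 0.00251) in siB cells.

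RAD51B, a protein of homologous recombination, fell in SCR cells (-1.27 ± 0.31 (SE; adjusted p = 0.0331)), and WWOX, an oxidoreductase at a common fragile site, fell in siB cells (-1.25 ± 0.20 (SE; adjusted p = 0.000751)). FTO, an RNA demethylase, had the smallest change of the group among genes with a mean of at least 5 CPM and measured 52.96, 27.6 and 41.8 CPM with SCR and DMSO, 17.8, 24.7 and 31.7 CPM with SCR and AAI, 38.9, 35.7 and 37.6 CPM with siB and DMSO, and 24.7, 32.03 and 31.7 CPM with siB and AAI. Its differences of -0.69 ± 0.33 (SE; adjusted p = 0.221) and -0.34 ± 0.14 (SE; adjusted p = 0.0617) passed no call. MACROD2, a hydrolase of ADP-ribose on proteins and the second longest gene of all, was the only gene tested with a higher mean in SCR AAI, at 4.31, 3.08 and 4.07 CPM against 3.93, 0.818 and 2.43 CPM, a difference of 0.61 with overlap. FHIT, a diadenosine triphosphate hydrolase, averaged 1.23 ± 0.461 and 0.389 ± 0.217 CPM in SCR DMSO and SCR AAI, and NAALADL2 0.724 ± 0.345 and 0.590 ± 0.177 CPM, both too low for the filter in the AAI comparisons. Of the 52 genes, 9 are known to lie at common fragile sites, FHIT, WWOX, MACROD2, IMMP2L, DMD, NBEA, RORA, DPYD and AUTS2. Of the 7 of these that were tested, 2 (28.6%) were lowered in SCR and 3 (42.9%) in siB cells, beside 31.1% and 40.4% of all the very long genes tested.

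**Figure D3:**
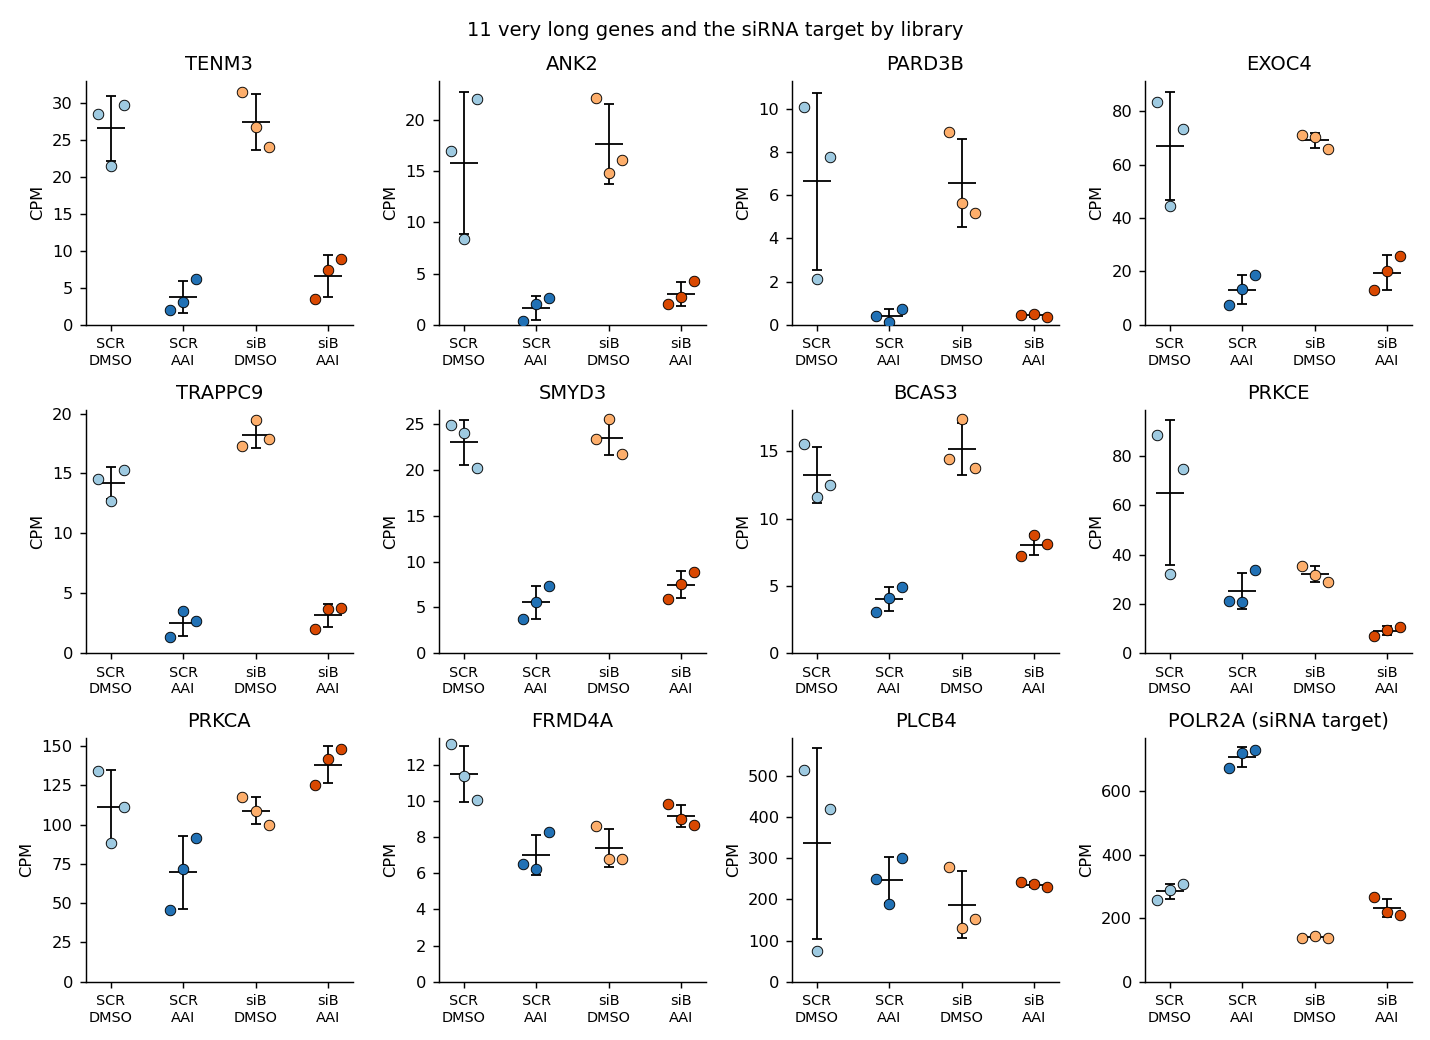
Each panel is 1 gene, each point 1 library in CPM, and lines and bars are the mean and SD of 3 libraries. TENM3, ANK2, PARD3B, EXOC4, TRAPPC9 and SMYD3 are low in both AAI groups, BCAS3 is less low in siB AAI, PRKCA is highest in siB AAI, and POLR2A is lower with siB under either treatment.

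Whether POLR2A knockdown changed the loss was asked in 3 ways. Under AAI, the median difference between siB and SCR over the 50 genes other than TENM3 and ANK2 was 0.27 on the log2 scale, beside 0.00 over 14946 genes tested. It was 0.29 with these 2 genes, whose low values in SCR AAI were used to choose them. Of 43 genes other than TENM3 and ANK2 that were tested, PRKCA alone was called raised by the knockdown (2.33%), beside 3.04% of all genes, and PRKCE alone was called lowered (2.33%), beside 0.629%. Both are shares of 1 gene and near the background for the raised direction. The difference was positive in 33 of 43, beside 50.3% of all genes tested. This was not particular to these genes. The difference was negative in 23.3% of the 43 and in 19.7% of the 233 other genes over 400 kb. With AAI, PRKCA averaged 69.8 ± 23.2 CPM in SCR cells and 138 ± 11.7 CPM in siB cells (SD, n = 3), a log2 difference of 1.03 ± 0.22 (SE; adjusted p = 0.0152). The call of PRKCA was lost without SCR AAI replicate 1 or siB AAI replicate 3.

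PRKCE, by contrast, was lower with siB under AAI, with a log2 difference of -1.37 ± 0.23 (SE; adjusted p = 0.00509), and with DMSO it was at 49.2% of the SCR level, -0.89 ± 0.37 (SE; adjusted p = 1), with overlap. The call of PRKCE under AAI missed the adjusted p without SCR AAI replicate 3. BCAS3 was 2.003 times as high in siB AAI as in SCR AAI and passed the adjusted p but not the fold limit on the log2(CPM + 1) scale, 0.86 ± 0.21 (SE; adjusted p = 0.0269). DOCK1, an activator of the GTPase Rac, at 0.57 ± 0.17 (SE; adjusted p = 0.0597), and VPS13B, at 0.77 ± 0.28 (SE; adjusted p = 0.102), had groups of 44.6, 44.7 and 63.1 against 74.9, 74.4 and 74.97 CPM and 5.85, 9.20 and 12.6 against 11.2, 20.1 and 17.4 CPM. TENM3 and ANK2, not tested here, were at 177% and 179.5% of their SCR AAI means in siB AAI.

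Without AAI, the knockdown called none of the 46 very long genes tested, beside 0.0% of all 13606 genes. POLR2A, the siRNA target, was not called here either, at -1.01 (adjusted p = 0.505, limma), although its libraries did not overlap. The absence of calls therefore cannot tell whether knockdown changed these genes without AAI. limma gave 1 gene with an unadjusted p under 0.05, FRMD4A (2.17%), beside 4.73% of all genes, and voom on the recovered reads also called 0, beside 0 of all genes. The median difference was -0.03 over the genes tested. For the third question, the change with AAI in siB cells minus that in SCR cells, the interaction test called none of 46 genes, beside 1.61% of 15325. The unadjusted p was under 0.05 in 3 genes (6.52%), FRMD4A, PRKCA and BCAS3, all with a positive difference, beside 13.3% of all genes. With voom, 0 of the very long genes and 0 of all 15325 genes were called. Without SCR DMSO replicate 2, PLCB4, PRKCA and PTPRK were called, at 1.35, 1.20 and 1.18, a share of 6.52% beside 6.59% of all genes and so at the background. TENM3 and ANK2 were left out of the next count, since a choice on their loss in SCR cells favours a smaller loss in siB cells. In 36 of the 45 genes tested in both backgrounds (80.0%) the value with AAI was less negative or more positive in siB than in SCR cells, beside 40.5% of all genes, and without SCR DMSO replicate 2 in 40 (88.9%), beside 52.1%. The median of these differences was 0.35 over the 50 genes and 0.36 over all 52. Over all 52 it ranged from 0.13 without SCR DMSO replicate 1 to 0.61 without SCR DMSO replicate 2, so that its size rested on the SCR controls. Other genes over 400 kb went much the same way. In the interaction fit, 19.6% of the 46 very long genes and 23.9% of the 280 others had a negative value. The medians were 0.35 and 0.28. No single gene thus showed a loss that differed between the backgrounds in the test over all libraries.

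**Figure D4:**
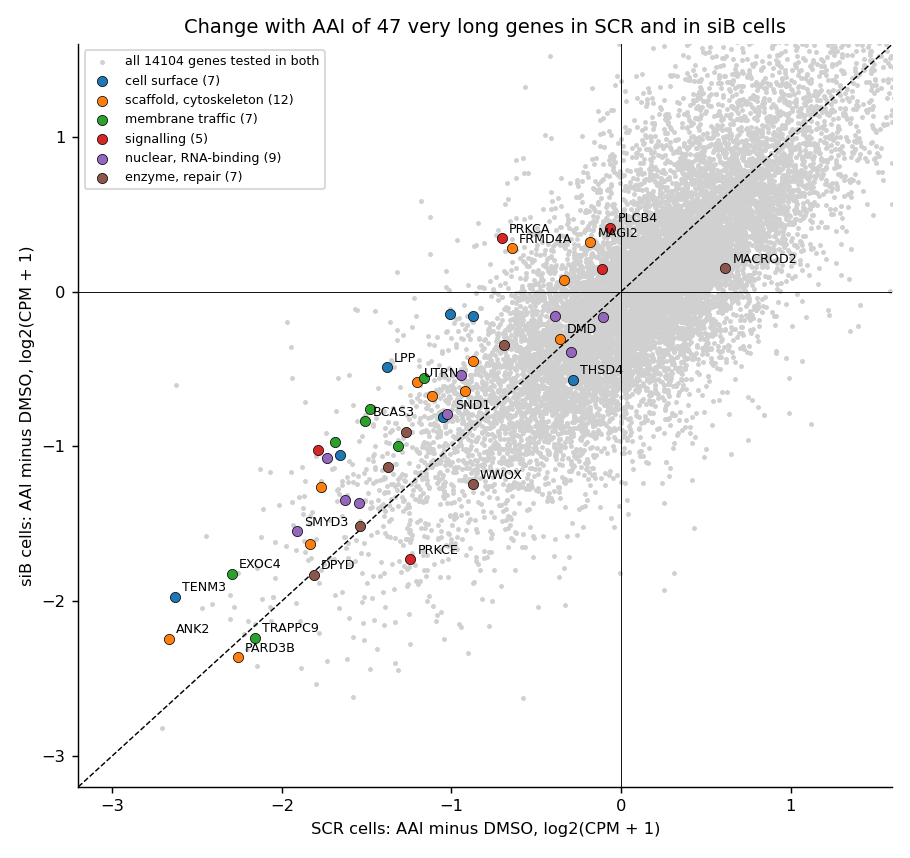
Each coloured point is 1 of 47 very long genes by group of roles, with the change with AAI in SCR cells on the x axis and in siB cells on the y axis, both on the log2(CPM + 1) scale; grey points are all 14104 genes tested in both, and those outside the axes are not drawn. Most coloured points lie at negative values on both axes and 38 lie above the dashed line of equal change, TENM3 and ANK2 among them, while PRKCE and WWOX lie below it.

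The rest of the table gives the setting for these 52. In SCR cells, 2.78% of genes under 30 kb were called lowered, 1.09% of those from 30 to 100 kb, 1.91% from 100 to 200 kb, 7.89% from 200 to 400 kb and 17.96% of the 245 other genes over 400 kb. The median change ran from 0.21 under 30 kb through 0.25, 0.06 and -0.33 to -0.68 in the other genes over 400 kb. Without SCR DMSO replicate 2 these shares were 3.28%, 2.51%, 6.41%, 23.7% and 40.4%, and 66.7% in the very long genes. In siB cells the shares called lowered were 6.89%, 2.93%, 4.09%, 11.2% and 22.5% in the same order. In both backgrounds the share was lower from 30 to 100 kb than under 30 kb, and it was highest over 400 kb. For knockdown under AAI the median difference went from -0.07 under 30 kb to 0.26 in the other genes over 400 kb. The 52 genes belong to the class over 400 kb and are not a further step of span. For AAI in SCR cells, AAI in siB cells and knockdown under AAI, the median of those tested was -1.16, -0.79 and 0.32. It was -0.68, -0.44 and 0.26 in the other genes over 400 kb. The median level in SCR DMSO averaged 4.45 in the very long genes and 3.09 in those other genes, on the log2(CPM + 1) scale. The difference between the 2 sets was not tested.

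**Figure D5:**
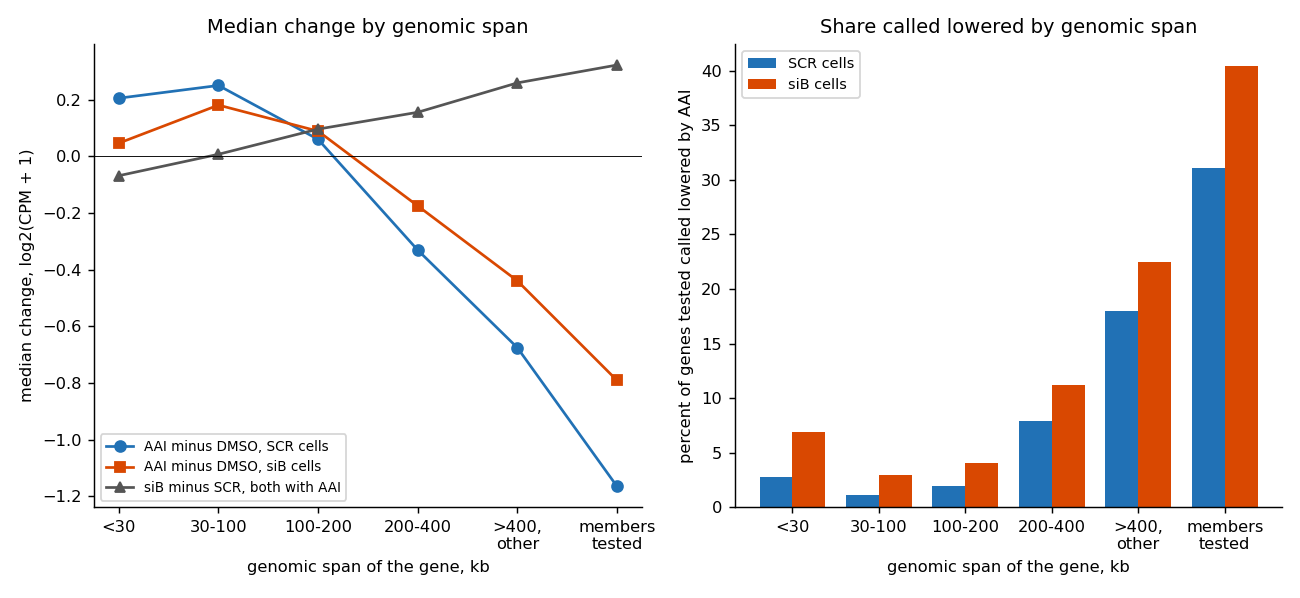
Left, the median change on the log2(CPM + 1) scale of genes grouped by genomic span in kb, for AAI in SCR cells (circles), AAI in siB cells (squares) and siB against SCR under AAI (triangles); right, the percent of tested genes called lowered by AAI in each class. Medians with AAI turn negative above 200 kb. In SCR cells the share called lowered is 7.89% from 200 to 400 kb and 17.96% in the other genes over 400 kb. It is 31.1% in the very long genes tested, which also belong to the class over 400 kb.

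Among the 52, the change was compared with features of the gene. Across the 45 tested, TENM3 and ANK2 left out, the Spearman correlation of the change with AAI with genomic span was -0.07 in SCR and -0.03 in siB cells. MACROD2 at 2058 kb and DMD at 2242 kb were not called, whereas ATXN1 at 462 kb was lowered in siB cells. The corresponding values were 0.10 and 0.21 for the exon number, 0.17 and 0.29 for the spliced length, 0.17 and 0.06 for the longest intron, 0.20 and 0.21 for the number of overlapping genes and -0.04 and 0.04 for the mean level in DMSO. The number of annotated coding transcripts under 100 kb gave the largest of these 7, 0.49 and 0.38. The median change of the 29 genes with at least 1 such short transcript was -0.92 in SCR and -0.59 in siB cells. For the 16 genes with none it was -1.55 and -0.92. All these values are across genes of the same libraries, and transcripts were not measured separately. Short coding transcripts numbered 19 for ANK3, 12 for CAMTA1 and 8 for DMD, which were not lowered, but also 13 for ANK2, which was, and PLCB4 and PRKCA had none.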

How the data were processed

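Bulk polyA RNA sequencing of 12 HK-2 libraries was analysed; groups and replicates came from the sample titles, since the labels' treatment field gives DMSO for all libraries. Per the study's methods and the submitters' processing notes, the authors aligned paired-end reads to hg38 and quantified them at the gene level to a UCSC hg38 annotation; aligner and strand setting are not given in the sources used here. The authors deposited log10(CPM + 1) values for 35238 genes. CPM was recovered as 10 to the deposited value, minus 1, and these took whole multiples of 1 read in at least 99.995% of values per library, to within 0.05 of a read.

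Spans came from GENCODE 44 (hg38), matched by symbol for 27011 genes, 1136 of them by an older symbol. limma 3.58.1 in R 4.3.3 (eBayes with trend) was run on log2(CPM + 1), a pseudocount of 1 CPM, which understates changes of low genes. The 2 groups of a comparison were fitted on their own, using genes at 1 CPM or more in at least 3 libraries, and called at a Benjamini-Hochberg adjusted p under 0.05 over all genes tested and at least 2-fold. The interaction was fitted over all groups with no fold limit. All adjusted p and SE are limma's. The labels do not say whether replicates were separate cultures, so p-values measure only the spread between libraries. Deviations from group means of same-numbered libraries correlated at 0.42, 0.47 and 0.34 between SCR DMSO and SCR AAI and at 0.61, 0.32 and 0.29 between SCR AAI and siB AAI, so numbers paired these libraries. The correlations were 0.21, 0.03 and 0.19 between siB DMSO and siB AAI, and 0.73, 0.59 and -0.19 between SCR DMSO and siB DMSO. Numbers were not taken to pair those groups throughout, although replicates 1 and 2 of the DMSO groups went together.

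The members, their role groups and all lists were chosen with earlier results of these data known. Values in every sample are given for TENM3, ANK2, POLR2A, up to 3 called genes with the largest change per role group, and the gene with the smallest change in SCR cells among those with a mean of at least 5 CPM per role group. Further genes are named in the text for their calls or for how they compare with a relative, and were picked after their values were seen. Alternatives were another pseudocount (0.1 CPM), no filter, a mean of at least 5 CPM, median-ratio scaling, CPM without the transcript AC010970.2, which took from 0.189% to 10.6% of reads, all groups in one fit, a replicate block, voom on recovered reads, no fold limit and leaving out each library.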

Additional observations from a re-analysis of the deposited data

Results flagged for a closer look

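FRMD4A, a scaffold of epithelial polarity, differed with AAI in opposite directions in the 2 siRNA backgrounds, and neither difference passed the test. It measured 13.1, 11.4 and 10.0 CPM in SCR DMSO and 6.52, 6.25 and 8.26 CPM in SCR AAI, all lower with AAI, a difference of -0.64 (adjusted p = 0.144, limma). In siB cells it measured 8.63, 6.81 and 6.80 CPM with DMSO and 9.85, 8.999 and 8.68 CPM with AAI, all higher with AAI, a difference of 0.28 (adjusted p = 0.176, limma). The difference between the 2 changes was 0.92 ± 0.26 (SE) on the log2 scale and missed the threshold in limma's interaction test over all genes (adjusted p = 0.116). Its 2 DMSO groups did not overlap either.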

How the results depend on the processing

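The count of very long genes lowered by AAI in SCR cells (14 of 45 tested) moved to 9 of 50 with no filter on low values and 7 of 34 at a mean of at least 5 CPM. It was 26 of 45 with median-ratio scaling, 23 of 46 with all groups in one fit and 22 of 45 with the replicate block. All genes lowered went from 389 of 14228 to 269 of 25641, 250 of 11526, 695 of 14228, 549 of 15325 and 539 of 14228 in the same order. Leaving out 1 library gave 5 to 30 very long genes. The count in siB cells (19) moved to 31 with no fold limit, and leaving out 1 library gave 14 to 21. The count raised by knockdown under AAI (1) was 2 at a pseudocount of 0.1 CPM, 2 with voom on recovered reads and 2 with no fold limit, BCAS3 joining PRKCA each time, and 0 to 2 when 1 library was left out. All genes raised went from 454 of 14946 to 622, 619 and 820 in these 3 settings. Knockdown without AAI called 0 in each alternative. Over all genes it called 0 as well, except 5 raised and 1 lowered with all groups in one fit. The interaction called 0 in each alternative except without SCR DMSO replicate 2, so leaving out 1 library gave 0 to 3. Over all genes the interaction also called 0 with voom and at a mean of at least 5 CPM. The replicate block gave 19 in siB cells, 1 under AAI and 0 for knockdown in DMSO and for the interaction, and changed no other call of a list. The spread between libraries was 0.48 for AAI in SCR cells, 0.16 in siB cells and 0.24 for knockdown under AAI. It was 0.51 for the difference of the AAI change between siB and SCR cells, above that median of 0.36. Medians kept their sign and stayed within this spread, a wide limit for the last 2. With median-ratio scaling they were -1.28 for AAI in SCR cells, -0.77 in siB cells and 0.30 for knockdown under AAI, while the median of all genes tested moved from 0.18 to -0.01 and from 0.10 to -0.01 for AAI, and all genes called in SCR cells went from 1100 raised and 389 lowered to 935 and 695. Leaving out 1 library gave -1.47 to -0.84, -0.76 to -0.52 and 0.15 to 0.43 for these medians. The median difference of the AAI change between siB and SCR cells, whose alternatives, like the values without SCR DMSO replicate 2 for non-overlap, sign and span class and those without PARD3B and DPYD, were chosen after seeing the data, ran from 0.13 to 0.61 and from 0.34 to 0.46 over the other settings. Of 35 calls of single genes, 18 held in every alternative, and over all alternatives 453 of 516 held, 63 were lost and 0 changed sign. Genes under 1 CPM could not be tested at this depth and filter.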

Other observations

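Summed over the 52 very long genes, SCR cells held 2393 ± 893 CPM with DMSO and 1124 ± 221 CPM with AAI, and siB cells held 1983 ± 335 and 1351 ± 91.0 CPM (SD, n = 3). The median level of the 280 other genes over 400 kb on the log2(CPM + 1) scale was 3.09 ± 0.63 and 2.43 ± 0.23 in SCR cells with DMSO and AAI, and 3.13 ± 0.17 and 2.73 ± 0.14 in siB cells.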
